A study of Mus musculus with 10 samples.

Results

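A set of 10 genes of the circadian clock was examined in AtT20 cells with and without knockdown of *Creb3l1*, namely *Dbp*, *Tef*, *Hlf*, *Nr1d1*, *Nr1d2*, *Per2*, *Per3*, *Cry1*, *Cry2* and *Clock*. They were listed by name as members of the clock, under a rule that uses no measured value, although the list was chosen with earlier results of these data known. They were 10 of the 53801 genes in the count table. Of the 10, 9 had enough counts to be tested, among 14336 genes tested in all, and *Hlf* had no count in any library. One of the 9, *Dbp*, fell in knockdown cells, and the other 8 did not pass the threshold of an adjusted p under 0.01. Of all genes tested, 40.7% passed this threshold, and 20.1% were lower in knockdown cells.

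AtT20 cells are a mouse line of corticotrophs, the cells of the anterior pituitary that make the hormone precursor proopiomelanocortin (POMC). All 10 libraries came from the subclone AtT20/D16v-F2, stably transduced with lentivirus, with 5 libraries from cells that expressed a short hairpin RNA (shRNA) against *Creb3l1* and 5 from cells with a non-targeting shRNA. *Creb3l1* encodes a transcription factor held in the membrane of the endoplasmic reticulum and released by cleavage. The hairpins were constitutive and each was carried by 1 stable line, so that a difference between the lines and an effect of the hairpin cannot be told apart. The study's methods call its replicates biological, and neither they nor the labels say whether the libraries of a line came from separate cultures, so that p-values measure the spread between these libraries. No time of day or synchronisation of the cells was stated, and each library is a population at one moment, in which a change of RNA per cell and a change in the share of cells that express a gene cannot be told apart.

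The circadian clock of a mammalian cell is a loop of transcription. CLOCK and its partner BMAL1 (encoded by *Arntl*) bind E-box sequences and switch on the Period and Cryptochrome genes, whose proteins return to the nucleus and inhibit that pair. A second loop is formed by the nuclear receptors REV-ERB, which repress *Arntl*, and ROR, which activate it, and the output factors DBP, TEF and HLF act on D-box sequences, where NFIL3 opposes them. In the pituitary and adrenal axis the clock and glucocorticoid secretion are linked, and clock genes are expressed in corticotrophs.

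The libraries held between 17420698 and 22205107 counts assigned to genes, and the factors by which they were scaled (edgeR's trimmed mean of M values, TMM) lay between 0.953 and 1.01. Non-targeting replicate 3 stood apart, with 4.13% of its counts in *Gm42418* compared with 0.106% to 0.191% in the other libraries. *Creb3l1* was at 3689 ± 148 (SD, n = 5) normalised counts in non-targeting cells and at 1090 ± 59.2 (SD, n = 5) in knockdown cells, a log2 fold change of -1.76 (adjusted p = 2.1e-33, by the quasi-likelihood test of edgeR, adjusted after Benjamini-Hochberg over all genes tested). Of all genes tested, 5837 (40.7%) passed the same threshold, 2958 (20.6%) of them higher and 2879 (20.1%) lower in knockdown cells. *Pomc*, the defining gene of the cell type, was high in all libraries (126258 to 137531 normalised counts in non-targeting and 87908 to 95083 in knockdown cells). Of the 6 corticotroph markers listed, 5 differed between the lines, 3 lower and 2 higher in knockdown cells. *Prl*, *Tshb*, *Fshb*, *Pou1f1*, *Cdh5* and *Ptprc*, which mark other pituitary cells, endothelium and leukocytes, were at 0 in all 10 libraries. *Gh*, *Cga* and *Lhb*, of other pituitary cells, reached at most 7.27 normalised counts. The endothelial marker *Pecam1* had counts in all libraries and was lower in knockdown cells (10.6 to 18.3 compared with 4.28 to 7.45, adjusted p = 0.0063, edgeR), and the leukocyte marker *Cd68* was between 24.6 and 51.9 in all libraries. The fibroblast collagen *Col1a1* was between 645 and 830 normalised counts in non-targeting and between 786 and 1155 in knockdown cells. *Col1a2* was between 166 and 313 in non-targeting and between 147 and 513 in knockdown cells. The third fibroblast marker, *Dcn*, reached at most 1.06. The melanotroph marker *Pax7* was between 9.05 and 19.7 in non-targeting and between 2.84 and 7.45 in knockdown cells, with too few counts to be tested. The part of these differences in the clock genes was not tested.

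*Dbp* (ENSMUSG00000059824) encodes D-site albumin promoter binding protein, an output factor of the clock whose gene is driven by CLOCK and BMAL1 in many tissues. It lies on chromosome 7 from 45705088 to 45710203 on the plus strand (GRCm38). Its normalised counts in the 5 non-targeting libraries were 277, 280, 315, 294 and 306. In the 5 knockdown libraries they were 222, 210, 223, 221 and 233, so that every knockdown library was below every non-targeting library. The means were 294 ± 16.7 and 222 ± 8.16 (SD, n = 5 each). The log2 fold change of -0.41 had a standard error of 0.072 and a 95% interval of -0.55 to -0.26, a level of 0.755 times that of non-targeting cells (adjusted p = 7.3e-06, edgeR). Without non-targeting replicate 3, the library that stood apart, *Dbp* fell by 0.39 on the log2 scale and remained significant (adjusted p = 3.6e-05, edgeR). The fall was moderate for these lines, since 17% of all genes tested had a larger absolute change.

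The sequence around the start of *Dbp* in the RefSeq annotation, from 250 bases before to 50 after, is shown because this was the only gene of the 10 that passed the threshold. It lies at chr7:45704997-45705296 on the plus strand of GRCm38.p6 and is printed 5′ to 3′, with capitals for GACGTG, the core of the G-box.
*Dbp* promoter: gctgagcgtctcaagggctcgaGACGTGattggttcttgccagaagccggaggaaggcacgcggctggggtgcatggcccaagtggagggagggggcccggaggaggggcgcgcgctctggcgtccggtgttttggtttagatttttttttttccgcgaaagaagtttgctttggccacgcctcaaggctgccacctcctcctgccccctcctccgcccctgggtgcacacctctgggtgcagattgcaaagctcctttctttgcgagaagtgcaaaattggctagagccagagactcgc
GACGTG begins 228 bases before the RefSeq start and 69 bases before the start of the gene in the GENCODE annotation. The same letters, on either strand, were present in 2095 (6.38%) of 32851 promoters of this length from 27025 genes. Such a match is a description of the sequence only, and no binding was measured here.

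*Tef* and *Hlf* encode the factors most closely related to DBP. *Tef* (thyrotroph embryonic factor) had 420, 402, 367, 383 and 387 normalised counts in non-targeting cells and 418, 460, 453, 405 and 435 in knockdown cells. The 2 ranges overlapped, and the log2 fold change of 0.15 (95% interval 0.026 to 0.27) did not pass the threshold (adjusted p = 0.037, edgeR). *Hlf* (hepatic leukaemia factor) had 0 counts in each of the 10 libraries. A count of 0 allows up to 3 counts in a library, or 0.135 to 0.172 CPM (counts scaled to a common library total) depending on its depth, and this limit covers counting error only.

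The ratio of *Dbp* to *Tef* within a library is nearly free of how libraries are scaled. Its log2 value was -0.41 ± 0.15 in non-targeting cells, with a range of -0.60 to -0.22, and -0.97 ± 0.11 in knockdown cells, with a range of -1.13 to -0.87 (SD, n = 5 each). The difference was -0.56 (two-sided exact permutation test over libraries, p = 0.0079, adjusted p = 0.032 over the 4 pairs of related genes tested). This p is the smallest that 5 against 5 libraries can give. The ratio thus fell in all 5 knockdown libraries relative to all 5 non-targeting libraries. Of the 5 pairs planned, *Tef* and *Hlf* could not be tested because *Hlf* was at 0.

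**Figure D1:**
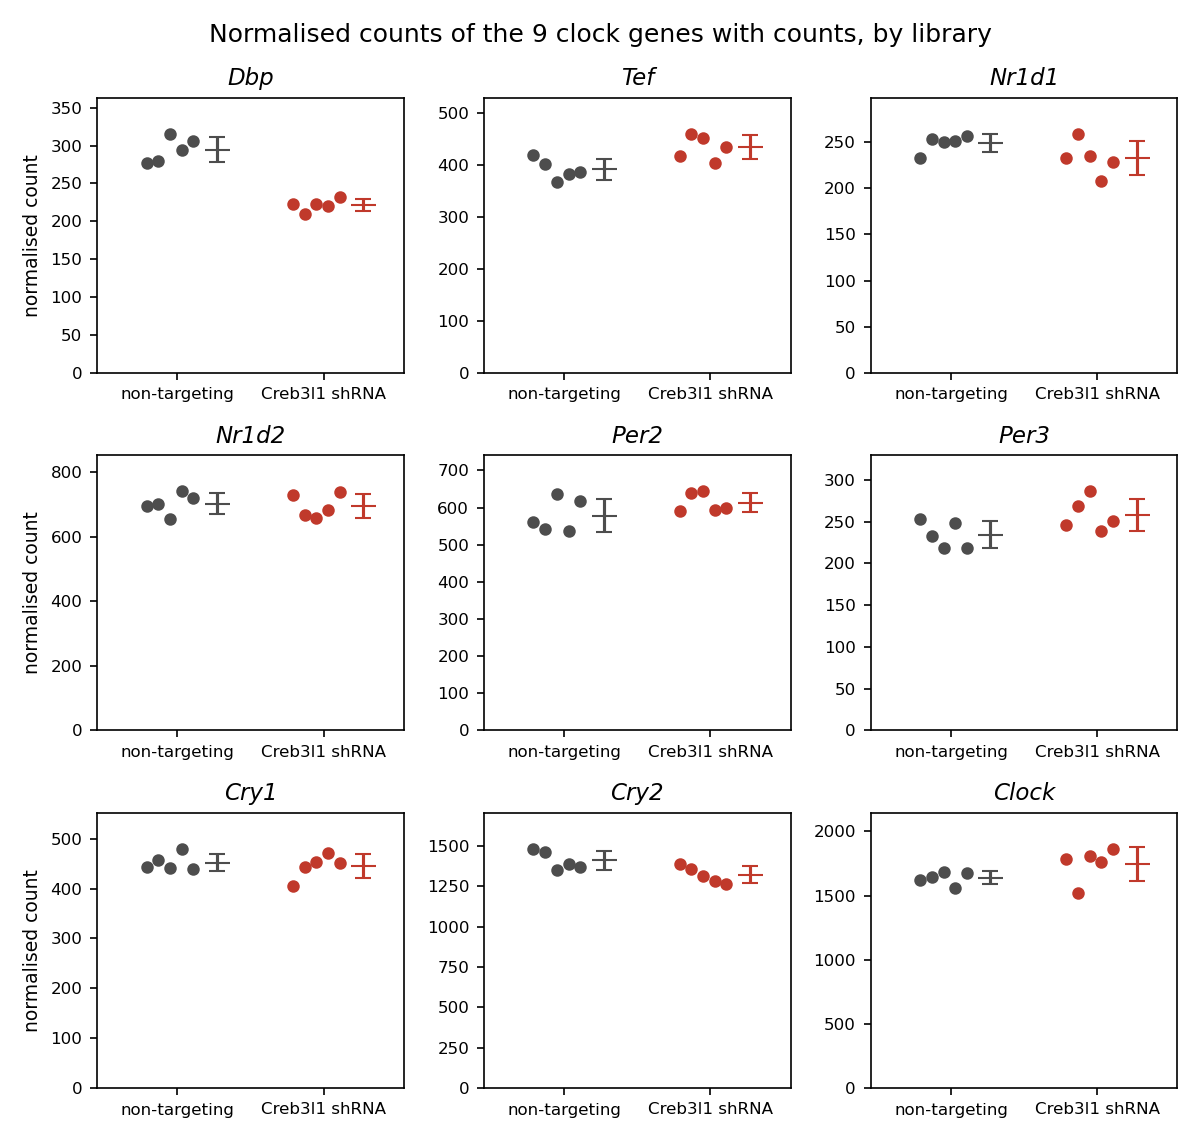
Normalised counts (vertical axis, from 0) of the 9 clock genes with counts, by library, for non-targeting shRNA (grey) and Creb3l1 shRNA (red) cells. Each point is 1 library, and the bar beside the points is the mean with its SD (n = 5). *Dbp* is the only panel in which the 2 lines do not overlap.

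*Nr1d1* and *Nr1d2* encode REV-ERBα and REV-ERBβ, the nuclear receptors that repress *Arntl*. *Nr1d1* was at 232.3, 253.3, 250.6, 251.6 and 256.5 normalised counts in non-targeting cells and at 233.4, 259.0, 235.1, 208.5 and 229.0 in knockdown cells. The libraries overlapped, and the log2 fold change was -0.097 (95% interval -0.25 to 0.054, adjusted p = 0.29, edgeR). *Nr1d2* was at 695, 702, 654, 741 and 719 in non-targeting cells and at 730, 667, 660, 682 and 739 in knockdown cells. Its log2 fold change of -0.014 was the smallest of the 9, and its interval (-0.11 to 0.078) was narrow (adjusted p = 0.82, edgeR). The log2 ratio of the 2 receptors differed by -0.084 between the lines (exact permutation test, p = 0.29, adjusted p = 0.42).

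*Per2* and *Per3* encode period proteins, of the inhibitory arm of the clock. *Per2* was at 560, 543, 637, 536 and 617 normalised counts in non-targeting and at 591, 638, 644, 593 and 599 in knockdown cells, a log2 fold change of 0.084 (95% interval -0.020 to 0.19, adjusted p = 0.18, edgeR). *Per3* was at 253, 233, 219, 248 and 219 in non-targeting and at 246, 269, 286, 239 and 251 in knockdown cells, a log2 fold change of 0.13 (95% interval -0.019 to 0.29, adjusted p = 0.14, edgeR). Both genes overlapped between the lines and both intervals included 0. Their log2 ratio differed by -0.053 (exact permutation test, p = 0.54, adjusted p = 0.54).

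*Cry1* and *Cry2* encode cryptochromes, the partners of the period proteins and the stronger inhibitors of CLOCK and BMAL1. *Cry1* was at 443, 458, 441, 480 and 438 normalised counts in non-targeting and at 406, 443, 454, 472 and 451 in knockdown cells, a log2 fold change of -0.023 (95% interval -0.14 to 0.091, adjusted p = 0.76, edgeR). *Cry2* was at 1482, 1460, 1352, 1391 and 1369 in non-targeting and at 1388, 1359, 1314, 1285 and 1263 in knockdown cells. The values of *Cry2* overlapped, and its log2 fold change of -0.095 (95% interval -0.17 to -0.022) did not pass the threshold (adjusted p = 0.027, edgeR). The log2 ratio of *Cry1* to *Cry2* differed by 0.071 between the lines (exact permutation test, p = 0.32, adjusted p = 0.42).

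*Clock*, which encodes the activating partner of BMAL1, was at 1621, 1645, 1685, 1562 and 1679 normalised counts in non-targeting cells. In knockdown cells it was at 1782, 1520, 1805, 1760 and 1864. Replicate 2 was thus below all non-targeting libraries, and the other 4 were above them. The log2 fold change was 0.094 (95% interval 0.0094 to 0.18, adjusted p = 0.060, edgeR). Without Creb3l1 shRNA replicate 2 it was 0.14 and passed the threshold (adjusted p = 0.00015, edgeR), and with offsets for the GC content and length of transcripts it turned to -0.056 (adjusted p = 0.11, edgeR). No direction is given for *Clock*.

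**Figure D2:**
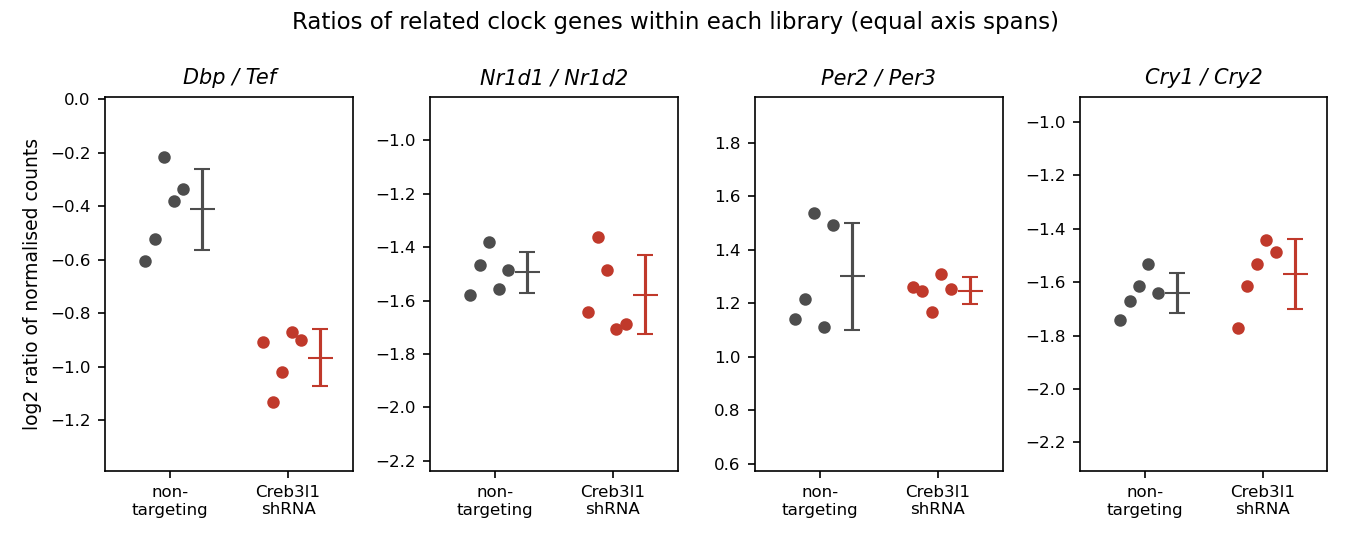
Log2 ratio of normalised counts (vertical axes of equal span) of 4 pairs of related clock genes within each library, for non-targeting shRNA (grey) and Creb3l1 shRNA (red) cells. Points are libraries and bars are the mean with its SD (n = 5). The *Dbp* to *Tef* ratio lies between -0.60 and -0.22 in non-targeting and between -1.13 and -0.87 in knockdown cells, and the other 3 ratios overlap between the lines.

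Of the 9 genes tested, 1 (11.1%) was called, compared with 40.7% of all genes. It was also 1 of the 9 in which the libraries of the 2 lines did not overlap, compared with 36% of all genes. The median absolute log2 fold change was 0.095 for the 9 genes and 0.15 for all genes, and the signed medians were -0.014 and -0.0025. The share called at like depth is given beside this count. Among genes with a mean count within 0.5 log2 units of theirs, the share called was between 37.2% (for *Dbp*, *Nr1d1* and *Per3*) and 52.1% (for *Clock*). At the depth of *Nr1d2* the smallest absolute log2 fold change that passed the threshold was 0.12, and at the depth of *Per3* it was 0.21. The intervals of the 8 genes that were not called reached at most 1.22-fold in either direction, for *Per3*, so that a larger change lay outside the 95% interval of each.

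Levels were compared between genes as CPM per kilobase of the longest annotated transcript. In non-targeting cells *Cry2* was highest at 17.5 ± 0.708 (SD, n = 5), above all libraries of the next gene. *Clock* (8.29 ± 0.254), *Dbp* (7.90 ± 0.449), *Nr1d2* (7.43 ± 0.341) and *Cry1* (7.37 ± 0.282) followed, and each of these overlapped its neighbour in the order. *Per2* (4.89 ± 0.385), *Nr1d1* (4.51 ± 0.172) and *Tef* (4.39 ± 0.227) formed a lower range in which neighbours overlapped, and *Per3* at 1.93 ± 0.132 was below all of these. On this scale the mean of *Dbp* moved from above to below those of *Nr1d2* and *Cry1*, at 5.95 ± 0.219 (range 5.63 to 6.25) in knockdown cells. There it was below every value of *Cry1*, which lay between 6.62 and 7.69, and above every value of *Per2*, which lay between 5.00 and 5.44. In the order of all genes tested, 69% were at a lower level than *Cry2* in non-targeting cells, 47.6% were lower than *Dbp* and 21.9% lower than *Per3*. The order depends on the length used. Over the union of all annotated exons *Dbp*, at 4.56 to 5.20 in non-targeting cells, was already below every library of *Nr1d2* (5.96 to 6.75) and *Cry1* (6.47 to 7.08), so that it did not cross them. On that scale *Dbp* in knockdown cells, at 3.46 to 3.83, was below every value of *Per2* (4.98 to 5.42), the reverse of the order above.

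**Figure D3:**
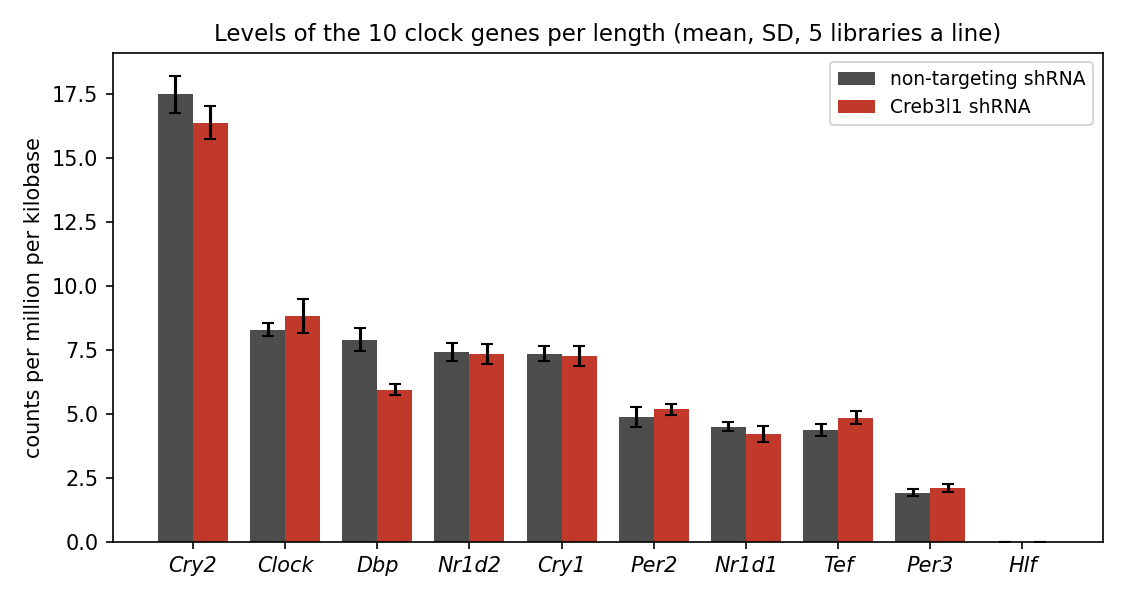
Level of the 10 clock genes in CPM per kilobase of the longest annotated transcript (vertical axis, from 0), as the mean and SD of 5 libraries, in non-targeting shRNA (grey) and Creb3l1 shRNA (red) cells. *Cry2* is highest at 17.5 in non-targeting cells, *Hlf* is at 0, and *Dbp* goes from 7.90 to 5.95.

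The spread within a line was compared with the spread that counting alone gives. The SD of *Dbp* on the log2 scale was 0.082 in non-targeting and 0.053 in knockdown libraries, where counting error alone gives 0.085 and 0.096. *Clock* was more variable in knockdown libraries, with an SD of 0.11 compared with 0.034 from counting, and *Per2* in non-targeting libraries, with 0.11 compared with 0.061. The median over all genes tested was 0.075 in non-targeting and 0.083 in knockdown libraries. Deviations of the libraries from their line means were compared over the 36 pairs of the 9 genes, with 10 libraries each. The correlations had a median of -0.083 and ranged from -0.82 for *Dbp* and *Cry2* to 0.79 for *Tef* and *Per3*. They are given as a description, since all genes share the depth and scaling of a library.

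Promoters in the RefSeq table were matched for 9 of the 10 genes, with no entry for *Per2*. They were searched on both strands for the E-box bound by CLOCK and BMAL1 (CACGTG), the D-box of DBP, TEF and HLF (TTATGTAA or TTACGTAA), the element of REV-ERB and ROR (TAGGTCA), the cyclic AMP response element (TGACGTCA) and the G-box core (GACGTG), of which none contains another. An E-box was found in *Tef* and *Cry1*, compared with 7.15% of all promoters. The percentages here are of promoters and not of genes, and a gene with several promoters was searched in each. *Per3* had 2 D-boxes, a motif found in 1.06% of all promoters, and *Hlf* had a cyclic AMP response element, found in 1.79%. The REV-ERB and ROR element, found in 2.61% of all promoters, was in none of the 9 genes within this window. The G-box core, found in 6.38% of all promoters, was in *Dbp* alone of the 9 genes. It was also in *Rora*, a further core factor of the clock that did not pass the threshold. The E-box and D-box matches in those of the 9 genes with counts are shown with their flanks. They place the binding sequences of the clock beside genes whose levels are given above. Capitals mark the motif, coordinates are those of GRCm38.p6, *Cry1* and *Per3* are on the minus strand, and *Tef* has an E-box in each of 2 RefSeq promoters.
*Tef*, chr15:81802531-81802566: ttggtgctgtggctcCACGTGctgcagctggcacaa
*Tef*, chr15:81811261-81811296: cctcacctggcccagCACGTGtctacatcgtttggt
*Cry1*, chr10:85185094-85185129: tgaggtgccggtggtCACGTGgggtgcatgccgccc
*Per3*, chr4:151044801-151044885: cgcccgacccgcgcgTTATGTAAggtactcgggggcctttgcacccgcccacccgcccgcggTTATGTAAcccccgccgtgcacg
The motifs began 127, 138, 60 and 205 bases before the RefSeq starts. By the GENCODE annotation both E-boxes of *Tef* lay within the gene, after its start. The motifs of *Cry1* and *Per3* began 50 and 205 bases before the GENCODE starts of their genes. *Dbp* had none of the E-box, D-box or receptor elements in its window of 300 bases. Sequence outside the windows and variants of these letters were not searched. The part of any motif in the levels was not tested.

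The other genes of the clock were taken from lists of named factors, which were also chosen with earlier results of these data known. Of 11 further core factors, 9 were tested and 6 were called (66.7%), 2 higher and 4 lower. Of all genes tested, 40.7% were called, 20.6% higher and 20.1% lower. *Bhlhe40* (DEC1), a repressor at E-boxes, fell from 1436 ± 145 to 784 ± 21.2 normalised counts (SD, n = 5), a log2 fold change of -0.87 (adjusted p = 2.0e-11, edgeR). Its paralogue *Bhlhe41* (DEC2) rose by 0.34 (adjusted p = 4.0e-12, edgeR). *Nfil3*, the repressor at D-boxes, fell by 0.58 (adjusted p = 7.5e-11, edgeR), so that *Dbp* and its antagonist were both lower in knockdown cells. *Arntl*, which encodes BMAL1, fell by 0.27 (adjusted p = 5.4e-07, edgeR) and its paralogue *Arntl2* by 0.38 (adjusted p = 8.2e-05, edgeR). *Per1* rose by 0.12 (adjusted p = 0.0020, edgeR), although its libraries overlapped. *Ciart* (-0.041) and *Rora* (-0.011) were not called. With the offsets for GC content and length *Rora* was at -0.17 and passed the threshold (adjusted p = 5.9e-05, edgeR). No counts were found in any library for *Npas2*, a paralogue of *Clock*, and *Rorb*.

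Of 10 kinases, ligases and other regulators of clock proteins, 9 were tested and 7 were called (77.8%, compared with 40.7% of all genes), 6 higher and 1 lower. *Csnk1a1* and *Btrc*, a casein kinase and a ubiquitin ligase subunit that act on period proteins, rose by 0.26 and 0.25 on the log2 scale. *Usp2*, a deubiquitinase, fell from 677 to 535 mean normalised counts, a log2 fold change of -0.34 (adjusted p = 3.0e-07, edgeR). Of 8 cofactors, 5 were called higher (62.5%) and none lower. The largest rise was in *Nono*, an RNA-binding partner of period proteins, at 8521 in non-targeting and 13664 in knockdown cells (log2 fold change 0.68, adjusted p = 5.0e-26, edgeR). The call of 1 of the 5, *Sirt1* (0.20, adjusted p = 0.0049, edgeR), whose libraries overlapped, was lost in 10 alternatives, among them the fit without robust estimation. Of 6 output genes, 5 were tested and 2 fell (40%, near the share of all genes called), *Tspan4* by 0.53 and *Nampt*, the rate-limiting enzyme of NAD salvage, by 0.35. Over all 4 lists, 20 of 31 genes tested were called (64.5%), 13 higher and 7 lower, compared with 1 of the 9 clock genes above and 40.7% of all genes. The sizes of change were closer, with a median absolute log2 fold change of 0.17 for the 31 genes and 0.15 for all genes. The lists were not matched for depth with the 9 genes. The share called among genes of like depth was 37.2% for *Dbp* and 52.1% for the deeper *Clock*. The part of depth in the different shares called was not tested.

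**Figure D4:**
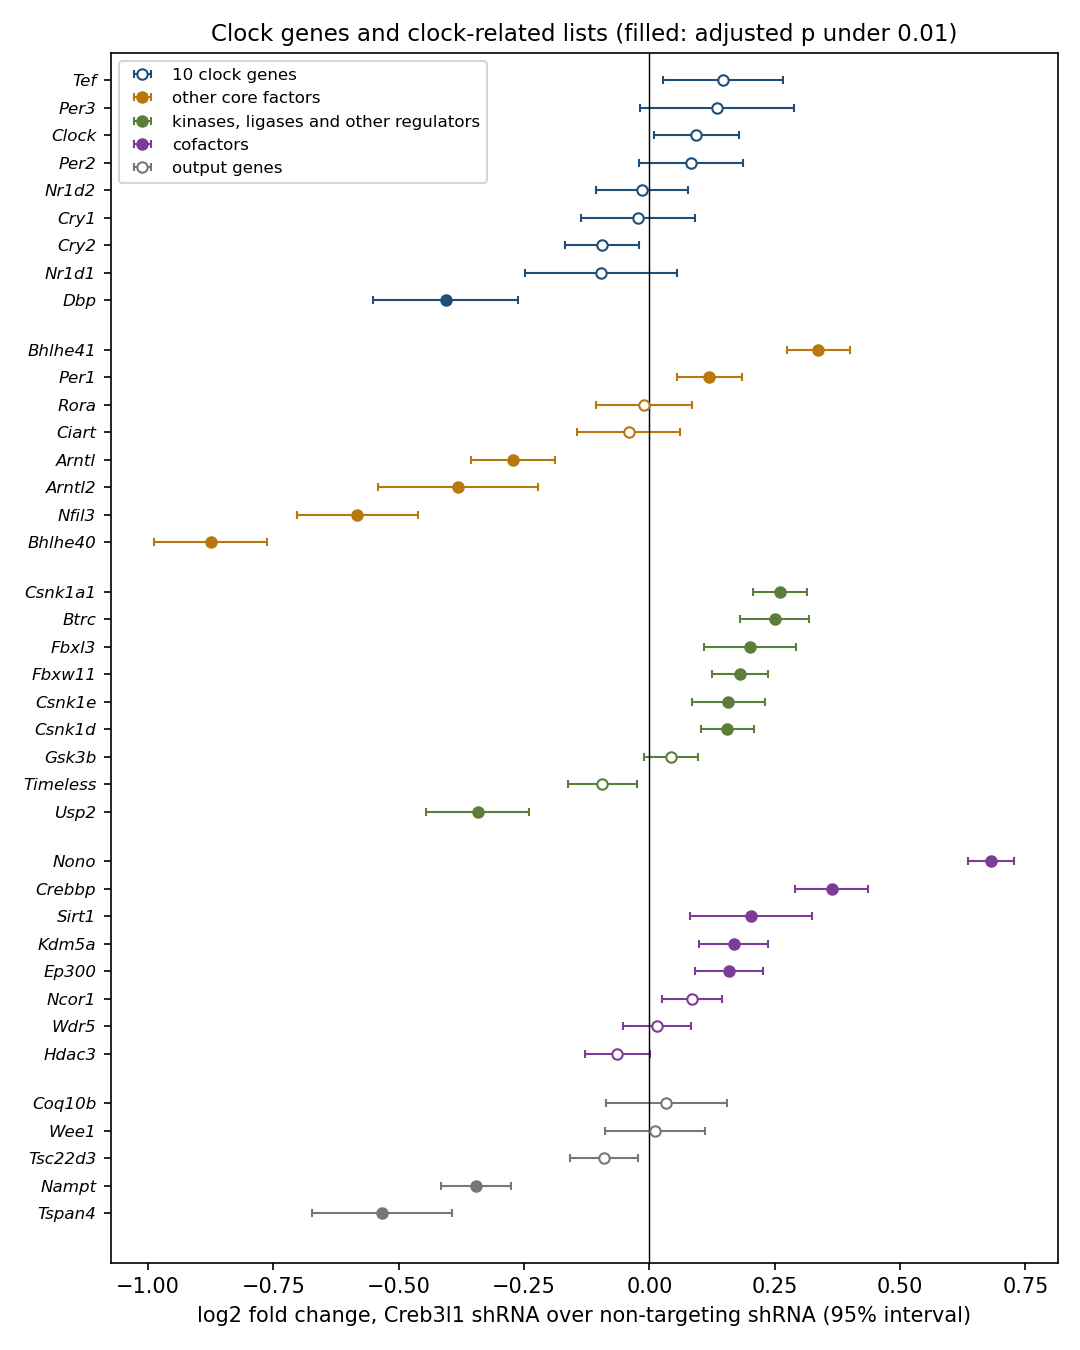
Log2 fold change in Creb3l1 shRNA over non-targeting shRNA cells (horizontal axis) with its 95% interval for the 9 clock genes tested (blue) and for further clock genes in 4 lists. Filled points have an adjusted p under 0.01 (edgeR), which applies to *Dbp* among the 9 and to 20 of the further genes.

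Some of the 10 genes share bases with other genes. The libraries were made with a stranded kit, so that the reads carry strand, but whether the counting used it was not stated. Counted without strand, reads from opposite strands cannot be told apart. *Dbp* shares 539 of its 2993 exonic bases with *Sphk2* on the other strand, which was at 1193 and 1164 mean normalised counts (log2 fold change -0.037, adjusted p = 0.44, edgeR). *Nr1d1* shares 263 of 3077 exonic bases with *Thra*, a thyroid hormone receptor gene on the other strand, which fell by 0.46 (adjusted p = 2.1e-07, edgeR). *Tef* and *Cry2* share 193 and 295 exonic bases with the non-coding genes *Gm17597* and *D930015M05Rik*. *Per3* lies within *Camta1* on the same strand and shares no exonic base with it, and *Camta1* rose by 0.19 (adjusted p = 2.0e-06, edgeR). The part of these overlaps in the counts was not tested.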

How the data were processed

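Poly(A)-selected RNA of 10 AtT20 libraries was sequenced. The authors aligned paired reads to GRCm38 with STAR and counted them per Ensembl gene with featureCounts, and the deposited values are raw counts, with no normalisation. Columns were assigned to samples by the number in their titles. All 10 libraries entered each fit.

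Counts were analysed with edgeR 4.0.16 in R 4.3.3: genes were kept by filterByExpr and scaled by TMM, the 2 lines were compared by a quasi-likelihood F test without covariates, adjusted by Benjamini-Hochberg over 14336 genes (threshold 0.01). Robust estimation was adopted after the default fit had been run and its counts seen. Its purpose was to match the number of genes called in an earlier processing of these data, and 16 combinations of fit options were compared, which called 5628, 5654, 5791 or 5837 genes. The option that gave 5837 was kept, and *Dbp* was the only one of the 10 genes called under all 16. Normalised counts are counts divided by relative effective library size. Ratios were tested by exact permutation. DESeq2 1.42.0, other filters and scalings, a replicate block and leaving out each library were alternatives. Replicate numbers did not pair the libraries. GENCODE vM21 gave positions, lengths and GC content, and RefSeq the promoters. The 10 genes and all lists were chosen with earlier results of these data known. The text names all 10 genes, *Creb3l1*, the further core factors, members of the other lists and overlapping genes. One listed gene is not reported here by name. The scripts were tested on simulated counts. Limits from counts of 0 cover counting error only.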

Additional observations from a re-analysis of the deposited data

Results flagged for a closer look

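One of 38 groups of 5 libraries that were examined had a library far from the others, and chance alone gives about 1 in 20 groups. *Nr1d1* was at 232 normalised counts in non-targeting replicate 1, below the other 4 libraries, which lay between 251 and 256. Without that library its log2 fold change was -0.12 (adjusted p = 0.23, edgeR), compared with -0.097 with it, and it was not called in either.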

How the results depend on the processing

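*Dbp* kept its direction and its call in all alternatives that recomputed it, with log2 fold changes of -0.43 to -0.31, the smallest with offsets for the GC content and length of transcripts. The number of the 10 genes called was 1. It was 3 at an adjusted p under 0.05, which added *Tef* and *Cry2*, 0 with a minimum of 1.5-fold, and 1 to 2 when single libraries were left out, where Creb3l1 shRNA replicate 2 added *Clock*. Of the 31 other clock genes tested, 20 were called, and 2 with the minimum fold. Of all genes tested, 40.7% were called, 50.3% at an adjusted p under 0.05 and 7.73% with the minimum fold. When single libraries were left out, 37.5% to 41.5% of all genes tested were called.

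Over all genes 5837 were called. The count was 5542 with DESeq2, 6086 without a filter, 6156 with the offsets, 7209 at 0.05, 5408 to 6026 when libraries were left out, and 1108 with the minimum fold, 470 higher and 638 lower. DESeq2 and the fit without a filter tested more genes, 26739 and 26766, of which 20.7% and 22.7% were called. The fit without robust estimation was the one run first, before robust estimation was adopted. It called 5628 genes, with 19 of the other clock genes among them. *Sirt1*, a cofactor, was not called there (adjusted p = 0.012, edgeR). Its call was also lost with DESeq2, with the offsets and when most single libraries were left out. Same-numbered libraries did not deviate together (correlations of -0.060 to 0.037), and the fit with the replicate number as a block called 6013 genes and again *Dbp* alone of the 10.

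Directions turned for genes near 0. With the offsets *Cry1* was 0.019, *Clock* -0.056, *Ciart* 0.040 and *Sphk2* 0.012, and with library totals *Rora* was 0.0010. *Rora* passed the threshold with the offsets, at -0.17 (adjusted p = 5.9e-05, edgeR). The cause was not tested. When libraries were left out, *Nr1d2* ranged from -0.039 to 0.0072, *Cry1* from -0.044 to 0.0097, *Rora* from -0.040 to 0.029, *Ciart* from -0.059 to 0.0049 and the *Per2* to *Per3* ratio from -0.10 to 0.0069. Depth limits the smaller changes: among genes with counts like those of *Per3*, none with an absolute log2 fold change under 0.21 was called.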
